A study of Mus musculus with 7 samples.

Results

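S100 proteins are small calcium-binding proteins with a pair of EF-hand motifs, most of which work as dimers. The 8 genes described here, S100a1, S100a4, S100a6, S100a8, S100a9, S100a10, S100a11 and S100a13, were chosen by name out of the 16047 genes of the expression table. They are 8 of the 15 S100 family genes that the table lists. Expression is given as RPKM, the reads of a gene scaled to its transcript length and to the size of the library. A gene was tested where it averaged 1 RPKM or more across the 7 libraries, which held for all 8 members and for 9594 genes in all. The neutrophils came from livers of C57BL/6 mice, 8–12 weeks old, that had been fasted for 12 h and then given acetaminophen (APAP) at 300 mg/kg. Both groups therefore had acetaminophen-induced liver injury (AILI), and uninjured livers were not analysed here. In 1 group of 3 mice the anti-CCR2 antibody MC-21 was injected, which depletes the monocytes that carry this chemokine receptor. It was given as 400 µL of conditioned medium with 29 µg/mL of antibody, from 12 h before APAP and then every 24 h. The 4 control mice received PBS, which controls neither for the medium nor for an unrelated antibody. Neutrophils were sorted at 24 h as CD11b+ Ly6Clo Ly6G+ cells without CX3CR1-GFP signal, and each library stands for 1 liver. This gate is in the labels, which give the strain as C57BL/6 only. The study kept Cx3cr1gfp/+ reporter mice besides wild-type mice, and whether the sorted livers carried the reporter is not given in the sources used here. The antibody was given to the whole animal, so its action on neutrophils and the loss of monocyte-derived cells around them cannot be told apart. The comparison asks which S100 transcripts in liver neutrophils differ when monocytes are depleted.

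In neutrophils, S100A8 and S100A9 form calprotectin, a dimer that is among the most abundant proteins of the cytosol, binds calcium and zinc and, once released, acts on Toll-like receptor 4 and on the receptor RAGE. S100A4 binds non-muscle myosin and is known for its role in cell motility, and it is well expressed in monocytes and macrophages as well. S100A10 and S100A11 bind annexins at membranes, S100A6 binds annexins and the calcyclin-binding protein, S100A13 takes part in the export of proteins that lack a signal peptide, and S100A1 is known best from cardiac muscle.

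S100a4 was the 1 member that differed between the groups after adjustment over all genes. It fell from 299 ± 48.7 RPKM (SD, n = 4) in PBS neutrophils to 32.7 ± 4.07 RPKM (SD, n = 3) in MC-21 neutrophils. The mRNAs of both calprotectin subunits stood at higher means in MC-21 neutrophils, 5793 against 3167 RPKM for S100a8 and 21655 against 15925 RPKM for S100a9, but neither passed the threshold. S100a10 was lower in each MC-21 library than in any PBS library and did not pass it either. S100a1, S100a6, S100a11 and S100a13 overlapped between the groups.

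Of the 9594 genes tested with limma on log2(RPKM + 1), 60 (0.625%) had a Benjamini-Hochberg adjusted p under 0.05, with 41 lower and 19 higher in MC-21 neutrophils. Centring each library on its median raised all differences by 0.16 and turned this split to 30 lower and 44 higher, and quantile normalization gave 29 lower and 26 higher. By that rule 1 of the 8 members was called, S100a4, which was lower, as were 0.427% of all genes, and 0 members were called higher, as were 0.198%. Past a 2-fold difference with an unadjusted p under 0.05 in the same limma fit, S100a4 was again the 1 member, beside 2.7% of all genes. An unadjusted p under 0.05 by limma was met by 14.7% of all genes and by 4 of the 8 members. Of these S100a4 and S100a10 were lower, and S100a8 and S100a9, which overlapped between the groups, were higher. With an unequal-variance test on log2 values only S100a4 met this limit. That test gave S100a8, S100a9 and S100a10 unadjusted p-values of 0.091, 0.081 and 0.054. Groups that did not overlap were found for 2 of the 8 members, S100a4 and S100a10, against 13.3% of all genes. Both were lower, as were 10.2% of all genes, and 0 members were higher without overlap, as were 3.1%. Of the 8 members 3 had a difference below 0, against 69.4% of all genes. The median log2 difference of the 8 members, MC-21 minus PBS, was 0.18, while that of all genes tested was −0.15. Labels name separate mice but not cages or days, so the p-values measure the spread between these livers. In sorted bulk samples such as these, fewer cells that carry a transcript and less of it per cell cannot be told apart.

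Depth limits what low values can show. Most low RPKM values, 70.9% to 73.6% of those under 5.5 reads in a library, lay within 0.1 of a whole read. From these steps 1 RPKM in a transcript of 1 kb stood for 1.59 to 3.96 reads in the 7 libraries. MC-21 replicate 3 was the shallowest library. With these steps, S100a9 rested on about 17994 to 36143 reads a library, and S100a4 on about 348 to 574 reads in PBS and 26 to 51 reads in MC-21 neutrophils. The PBS libraries carry the replicate numbers 5 to 8 and the MC-21 libraries 2 to 4.

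The promoters of the 3 members on which the results turn are shown first, as the 250 bases before the RefSeq start of each gene in the GRCm38.p6 assembly, 5′ to 3′ on the gene's own strand. Capitals mark matches to TATAAA (the box that TBP binds), TTGCNNAA (the core of C/EBP sites) and AGGAAG (the core of PU.1 and other ETS sites), and on the opposite strand the last reads CTTCCT. S100a4 lies at chr3:90603520-90603769 and S100a8 at chr3:90668821-90669070, both on the forward strand, and S100a9 lies at chr3:90695722-90695971 on the reverse strand.
S100a4: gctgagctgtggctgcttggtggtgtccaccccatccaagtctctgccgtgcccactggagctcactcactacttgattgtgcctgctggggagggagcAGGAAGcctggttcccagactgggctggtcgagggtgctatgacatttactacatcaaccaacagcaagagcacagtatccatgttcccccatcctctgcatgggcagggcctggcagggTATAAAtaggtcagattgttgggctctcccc
S100a8: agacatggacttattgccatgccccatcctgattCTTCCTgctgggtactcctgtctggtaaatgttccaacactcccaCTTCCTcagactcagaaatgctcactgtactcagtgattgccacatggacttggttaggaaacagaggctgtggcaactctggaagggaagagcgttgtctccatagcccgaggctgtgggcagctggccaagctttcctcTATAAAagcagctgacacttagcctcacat
S100a9: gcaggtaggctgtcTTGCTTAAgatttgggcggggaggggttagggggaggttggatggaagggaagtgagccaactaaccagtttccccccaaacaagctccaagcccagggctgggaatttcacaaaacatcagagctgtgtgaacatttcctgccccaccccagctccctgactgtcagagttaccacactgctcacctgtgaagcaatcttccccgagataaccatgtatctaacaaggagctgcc
S100a4 and S100a8 both held TATAAA close to the start, at −31 to −26 and −30 to −25. S100a4 held AGGAAG at −151 to −146, S100a8 held it on the opposite strand at −216 to −211 and −171 to −166, and S100a9 held TTGCNNAA at −236 to −229. Of the 7 members with a promoter entry, 2 held TATAAA, which 12.4% of 32851 mouse promoters hold on either strand. AGGAAG was in 2 of the 7 (29.5% of all promoters) and TTGCNNAA in 1 (9.56%). The motif TGANTCA of AP-1 sites was found in 1, S100a11 (6.75%), and ACGTG, the core of hypoxia response elements and E-boxes, also in S100a11 alone (16.6%), where matches on both strands overlapped. No other matches overlapped. S100a4, whose mRNA fell, and S100a8, whose mean was higher, thus shared both of the motifs found in S100a4.

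Levels across the family spanned more than 2 orders of magnitude. S100a9 had the highest RPKM of all genes in each of the 7 libraries. In PBS neutrophils the order by mean RPKM was S100a9, S100a8, S100a6, S100a11, S100a10, S100a4, S100a13 and S100a1. Each gene stood above the next in all 4 libraries, except that S100a10 was above S100a4 in 2 of 4, so these neighbours did not differ beyond their spread. In MC-21 neutrophils the first 5 kept their places in this order, and S100a13 and S100a1 came before S100a4, which was last in all 3 libraries. RPKM divides by transcript length although a 3′ library yields reads from the end of a transcript. On RPKM times transcript length the order of S100a8 and S100a6 turned in PBS neutrophils, where each was above the other in 2 of 4 libraries, while S100a4 stayed last in MC-21 neutrophils. Together the 8 members made up 3.84% to 5.56% of the summed RPKM in PBS libraries and 5.09% to 7.23% in MC-21 libraries.

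**Figure D1:**
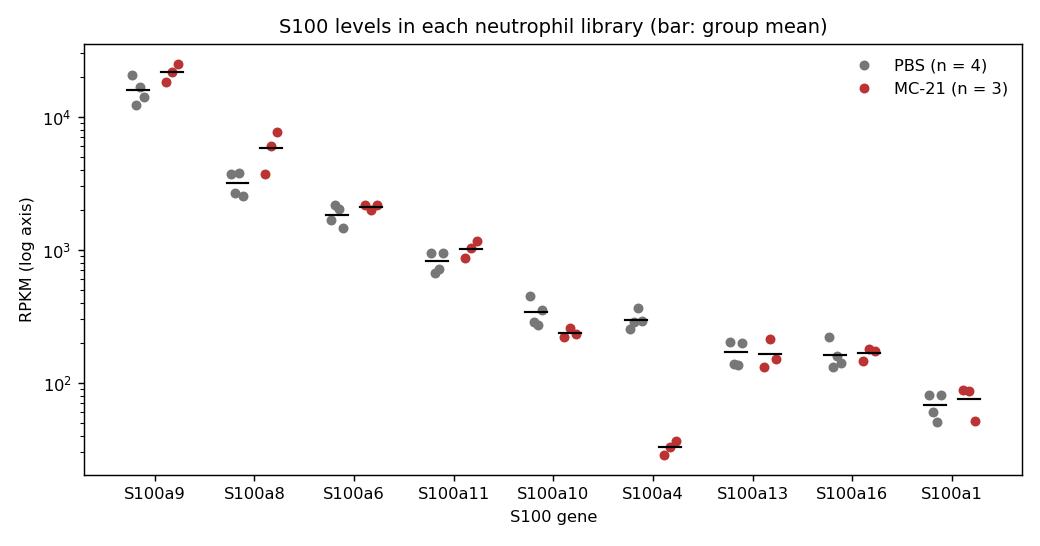
RPKM on a log axis for the 8 members and S100a16 in the 4 PBS and 3 MC-21 libraries (points), with a bar at each group mean. S100a9 is the highest in every library, and S100a4 is the gene whose 3 MC-21 points, between 28.6 and 36.8 RPKM, lie far under the 4 PBS points, between 253 and 368 RPKM.

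S100a9 encodes the larger calprotectin subunit. It was at 20590, 12275, 16703 and 14131 RPKM in PBS replicates 5 to 8 and at 18142, 21783 and 25041 RPKM in MC-21 replicates 2 to 4. PBS replicate 5 lay above MC-21 replicate 2, so the groups overlapped. The difference on log2(RPKM + 1) was 0.46 (SE 0.19, 95% interval 0.04 to 0.88), with an adjusted p of 0.310 by limma. Since S100a9 ranks first in each library, quantile normalization by its construction sets this difference to 0.

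S100a8, its partner subunit, varied more. Its levels were 3702, 2660, 3767 and 2538 RPKM in PBS replicates 5 to 8 and 3739, 5991 and 7648 RPKM in MC-21 replicates 2 to 4. MC-21 replicates 3 and 4 lay above all PBS libraries, and MC-21 replicate 2 lay within their range. The log2 difference was 0.83 (SE 0.25, 95% interval 0.28 to 1.39, adjusted p = 0.185 by limma). Its rank among all genes was 13 to 18 in PBS and 6 to 13 in MC-21 libraries.

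The ratio of S100a8 to S100a9 within a library was 0.180, 0.217, 0.226 and 0.180 in PBS and 0.206, 0.275 and 0.305 in MC-21 neutrophils. Thus it was 0.200 ± 0.0242 (SD, n = 4) and 0.262 ± 0.0509 (SD, n = 3), with MC-21 replicate 2 inside the PBS range. Both subunits together took 3.09% to 4.84% of the summed RPKM in PBS and 4.39% to 6.47% in MC-21 libraries, again with overlap. Around their group means, S100a8 and S100a9 moved together with a Pearson r of 0.83 over 7 libraries, which share depth and composition. This was the highest r of any pair of members, but S100a10 and S100a13 reached 0.82, so it hardly stands apart. S100a8 had the widest spread within groups among the members, with an SD of 0.41 on the log2 scale, against a median of 0.24 over the 4135 genes that averaged 10 RPKM or more.

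**Figure D2:**
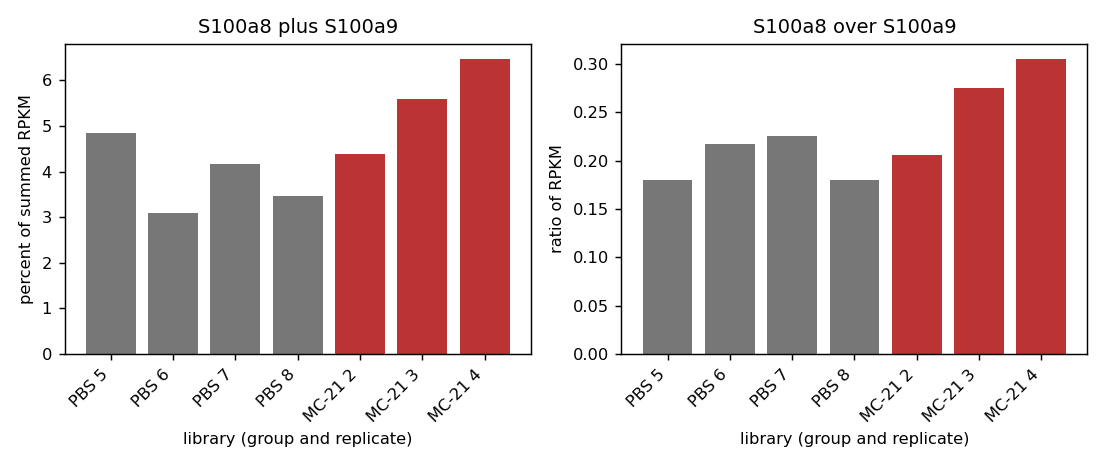
Bars per library (PBS replicates 5 to 8, MC-21 replicates 2 to 4), all from 0. The panels show S100a8 plus S100a9 as a percent of the summed RPKM, and the ratio of S100a8 to S100a9. MC-21 replicates 3 and 4 hold the highest values in each panel, and MC-21 replicate 2 stands among the PBS libraries.

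Neutrophil markers are given beside calprotectin because they are made by the same cells. Of 20 neutrophil markers tested, 0 passed limma's adjusted threshold and 6 had an unadjusted p under 0.05, of which 5 were higher in MC-21 neutrophils, beside 3.59% of all genes that were higher at that limit. The 1 that was lower was Camp (log2 difference −1.89, adjusted p = 0.281 by limma). Of the 20 markers 7 had a log2 difference below 0, and their median was 0.22. Their summed level was 5800 to 9498 RPKM in PBS and 9956 to 13048 RPKM in MC-21 libraries, with Retnlg, Lcn2 and Wfdc21 leading. Retnlg alone was at 2069 to 5402 RPKM in PBS and 4458 to 7058 RPKM in MC-21 libraries, a large part of the sums. Median centring brought Wfdc21 past the threshold (adjusted p = 0.0465 by limma). Retnlg, a resistin-like granule protein of neutrophils, was also among the 3 genes most like S100a9 by their deviations from group means (r = 0.97), beside 0610012G03Rik and Ctnna1 (both 0.97). For S100a8 these genes were Chrac1 (0.98), Rassf5 (0.97) and BC037034 (0.96). Such values over 7 libraries, out of 4135 genes compared, describe likeness only. The part of the neutrophil markers in the S100a8 and S100a9 values was not tested.

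S100a4 was at 253, 285, 368 and 291 RPKM in PBS replicates 5 to 8 and at 28.6, 32.7 and 36.8 RPKM in MC-21 replicates 2 to 4. All MC-21 libraries lay far under all PBS libraries, and neither group had a library apart from its others. The log2 difference was −3.15 (SE 0.16, 95% interval −3.51 to −2.78), an 8.86-fold lower level, with an adjusted p of 6.1e-05 by limma. Its rank among all genes of a library was 213 to 315 in PBS and 1560 to 2016 in MC-21 neutrophils. The ratio of S100a6 to S100a4, a close neighbour on chromosome 3, was 5.05 to 7.61 in PBS and 59.0 to 76.0 in MC-21 neutrophils. The level left in MC-21 neutrophils was 10.9% of the PBS mean, and 9.57% to 12.3% in single libraries. S100a4 kept its direction in all 15 alternatives, from −3.23 to −2.98, and was called in 14. An equal-variance test on untransformed RPKM, after adjustment, did not call it (adjusted p = 0.123).

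A number of transcripts listed as markers of other myeloid cells fell in the same libraries, and the cells they came from were not tested. The study reported Fcgr1, H2-Aa, H2-Ab1 and Cd74 as reduced in the neutrophils. By flow cytometry it also found a smaller fraction of MHCII+ neutrophils after monocyte ablation. In the counts that follow, a marker fell where it was lower with an adjusted p under 0.05 by limma, as 0.427% of all genes were. Of 16 monocyte markers tested, 3 fell: Ccr2, the receptor MC-21 binds, at 2.42 ± 0.588 and 0.197 ± 0.195 RPKM (n = 4 and 3), Ms4a6c (adjusted p = 0.00851 by limma) and F13a1 (adjusted p = 0.0378). Of 12 macrophage and Kupffer cell markers tested 3 fell, the Fc receptor gene Fcgr1, the lipid receptor gene Trem2 and the receptor kinase gene Axl. Of 9 dendritic cell markers tested 4 fell, the MHC class II genes H2-Aa, H2-Ab1 and H2-Eb1 and the invariant chain gene Cd74. The other tested markers of that list did not pass the adjusted threshold. By log2 difference Zbtb46 (−0.16), Itgax (−0.24) and Ccr7 (−1.22) were lower, and Clec9a (0.20) and Batf3 were higher. A further 4, Flt3 and Xcr1 among them, averaged under 1 RPKM and were not tested. Not all markers were lower. Log2 differences below 0 were found for 14 of 16 monocyte, 10 of 12 macrophage and Kupffer cell and 7 of 9 dendritic cell markers. Over all genes this share was 69.4%. At an unadjusted p under 0.05 by limma, 10, 8 and 5 markers of these lists were lower and 1, 0 and 1 higher. Of all genes 11.2% were lower and 3.59% higher at that limit. Batf3 and Plac8, described here after their values were seen, were among the markers with higher means and did not pass the adjusted threshold. The dendritic cell transcription factor gene Batf3 was at 20.1 to 28.4 RPKM in PBS and 29.1 to 62.9 RPKM in MC-21 libraries, without overlap (log2 difference 0.80, adjusted p = 0.203 by limma), and the monocyte marker Plac8 at 131 to 196 and 175 to 233 RPKM (0.43, adjusted p = 0.319). None of the 10 marker genes that fell overlapped between the groups, where 10.2% of all genes were lower without overlap. These 10 were picked by their adjusted p in the same libraries, so the lack of overlap is no further support. When single libraries were left out, S100a4, Ms4a6c, Fcgr1, H2-Aa and H2-Ab1 passed limma's threshold each time. The other 6 lost the call without PBS replicate 8 and, except for Trem2, without 1 or more of PBS replicates 5 and 7 and MC-21 replicates 2, 3 and 4, with adjusted p-values by limma of up to 0.122 (F13a1).

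What was left in MC-21 neutrophils, as a percent of the PBS mean, was 8.15% for Ccr2, 9.70% for F13a1, 10.4% for Trem2, 12.9% for Fcgr1, 20.0% for Axl and 21.8% for Ms4a6c. For the MHC class II group it was 24.0% for H2-Ab1, 28.5% for H2-Eb1, 29.2% for H2-Aa and 47.8% for Cd74. The 10.9% of S100a4 lay between those of Trem2 and Fcgr1. The levels themselves were far apart, since S100a4 was at 299 RPKM in PBS neutrophils and Trem2 and Fcgr1 at 19.6 and 10.1 RPKM, per length.

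Summed over whole lists, monocyte markers were at 553 to 791 RPKM in PBS and 436 to 550 RPKM in MC-21 libraries, led by Ctss, Plac8 and Csf1r, of which Plac8 had the higher mean in MC-21 neutrophils. Macrophage and Kupffer cell markers were at 1672 to 1980 and 999 to 1416 RPKM, led by Apoe, Hmox1 and Marco. Dendritic cell markers were at 875 to 1196 and 325 to 392 RPKM, led by H2-Aa, H2-Eb1 and H2-Ab1. These leading genes are among those called above, so the sum largely repeats them. These 3 sums did not overlap between the groups. Ccr2 was listed at 0 in MC-21 replicate 3 only. The part of these other myeloid cells in the S100a4 difference was not tested.

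**Figure D3:**
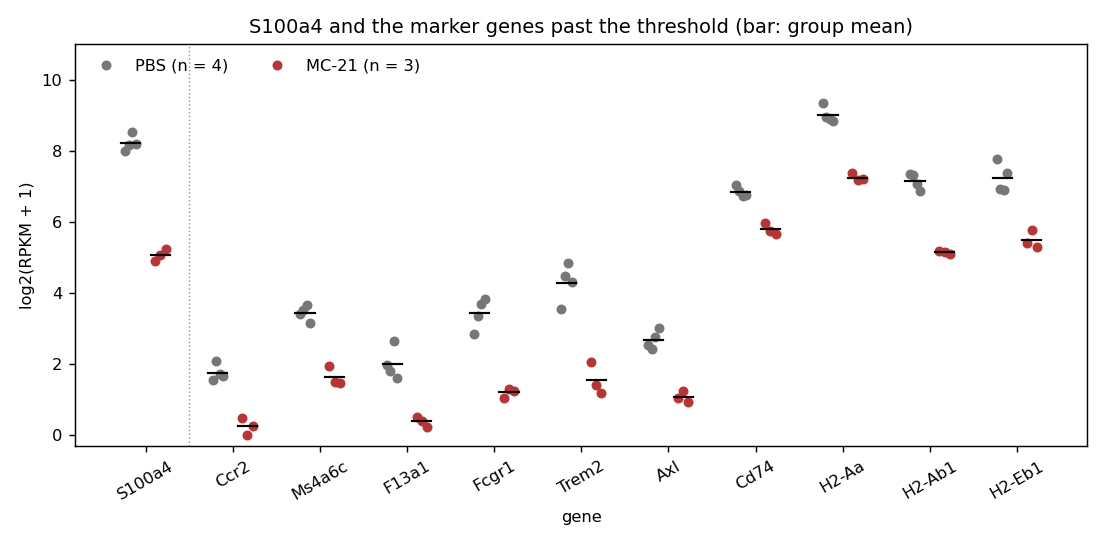
S100a4 and the 10 marker genes of monocytes, macrophages and dendritic cells with an adjusted p under 0.05, as log2(RPKM + 1) in each library (points) with a bar at each group mean. In each of these genes the 3 MC-21 libraries lie under the 4 PBS libraries, which is no further support, since the 10 were picked from the same libraries.

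The genes whose deviations from the group means were most like those of S100a4 were Ncf1 (r = 0.98), a subunit of the phagocyte NADPH oxidase, Nt5c2 (0.96) and Stard10 (0.96). Within groups S100a4 varied little, with an SD of 0.21 on the log2 scale.

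S100a10, the partner of annexin A2, was at 448, 284, 270 and 355 RPKM in PBS replicates 5 to 8 and at 219, 257 and 235 RPKM in MC-21 replicates 2 to 4. The groups did not overlap, but PBS replicate 7 and MC-21 replicate 3 lay close together. The log2 difference was −0.49 (SE 0.18, 95% interval −0.90 to −0.08, adjusted p = 0.274 by limma). Median centring left −0.33 of it.

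S100a13, whose product takes part in unconventional export, was at 202, 139, 136 and 200 RPKM in PBS and at 132, 215 and 151 RPKM in MC-21 neutrophils. It did not separate the groups, at −0.03 (95% interval −0.52 to 0.45), or 0.13 with median centring. S100a1 was at 80.6, 60.5, 50.7 and 80.9 RPKM in PBS and at 88.8, 86.8 and 51.5 RPKM in MC-21 neutrophils, a difference of 0.13 (95% interval −0.40 to 0.67). The intervals are wide in both directions, so these 7 libraries do not show the levels to be alike.

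S100a6 (calcyclin) was the third most abundant member, at 1667, 2166, 2029 and 1468 RPKM in PBS and at 2173, 1989 and 2167 RPKM in MC-21 neutrophils. The MC-21 values lay at the upper end of the PBS range, with a log2 difference of 0.22 (95% interval −0.12 to 0.56, adjusted p = 0.542 by limma). S100a11 was at 945, 669, 721 and 951 RPKM in PBS and at 863, 1023 and 1172 RPKM in MC-21 neutrophils, a log2 difference of 0.32 (95% interval −0.07 to 0.70, adjusted p = 0.431 by limma). MC-21 replicate 2 overlapped the PBS libraries. The S100a6 difference was 0.12 without PBS replicate 8, 0.15 with quantile normalization and 0.38 with median centring, and that of S100a11 was 0.21 without MC-21 replicate 4 and 0.48 with median centring. Of the 462 stretches of 50 bases in the S100a11 transcripts, 108 (23.4%) also occur in those of Gm7665, so reads of these genes may be split, and S100a11 is the less certain for it. The other members shared 0 such stretches with another gene.

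**Figure D4:**
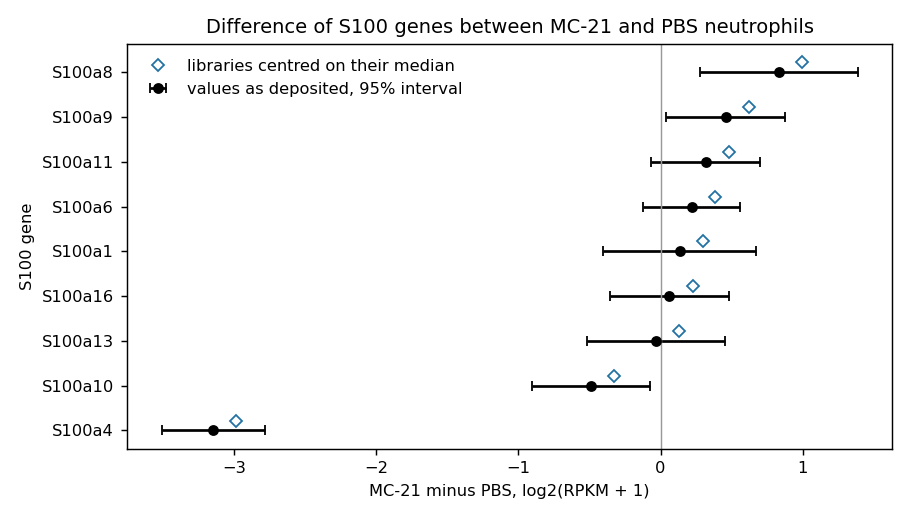
Difference of the 8 members and S100a16 between MC-21 and PBS neutrophils on log2(RPKM + 1), with its 95% interval (black) and the value after median centring of the libraries (open diamonds). S100a4 lies at −3.15, all other members between −0.49 and 0.83, and centring moves S100a13 across 0.

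Some members varied between livers along with a summed level of endothelial markers, a pattern chosen after its values were seen. The 15 endothelial and stellate cell markers, led by Clec4g, Eng and Pecam1, summed to 1382 to 2826 RPKM in PBS and 1432 to 2461 RPKM in MC-21 libraries. Clec4g, a lectin of liver sinusoidal endothelium, made up 34.3% to 62.5% of the sum. Pecam1, the CD31 gene, which leukocytes express as well, had another order and was highest in MC-21 replicates 4 (247 RPKM) and 2 (230 RPKM). Of the 11 markers tested, 0 passed limma's threshold and 2 had an unadjusted p under 0.05. Of these 1 was lower and 1 higher, where 11.2% of all genes were lower and 3.59% higher. The sum was highest in PBS replicate 5 (2826 RPKM), PBS replicate 8 (2521 RPKM) and MC-21 replicate 3 (2461 RPKM). The same 3 libraries held the 3 highest S100a13 values and the 3 lowest S100a6 values. S100a10 was highest in PBS replicates 5 and 8, and MC-21 replicate 3 was the highest of its group.

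Deviations of S100a10 and S100a13 from the group means moved together (r = 0.82), while those of S100a6 and S100a13 moved against each other (r = −0.81). These are descriptions over the same 7 libraries. The part of endothelial transcripts in these values was not tested. Hepatocyte markers, led by Apoa1, Trf and Ahsg, were at 447 to 896 RPKM in PBS and 434 to 677 RPKM in MC-21 libraries, and 0 of 13 passed the adjusted or the unadjusted threshold. Lymphocyte markers (Cd79b, Nkg7 and Gzma leading) summed to 22.7 to 48.2 and 17.9 to 28.8 RPKM, with 0 of 7 called by limma. At an unadjusted p under 0.05, 3 of the 7 were lower, as were 11.2% of all genes. Eosinophil, basophil and mast cell markers (Siglecf, Mcpt8 and Ccr3) summed to 12.2 to 21.8 and 10.7 to 19.5 RPKM, with 0 of 2 tested past either threshold.

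**Figure D5:**
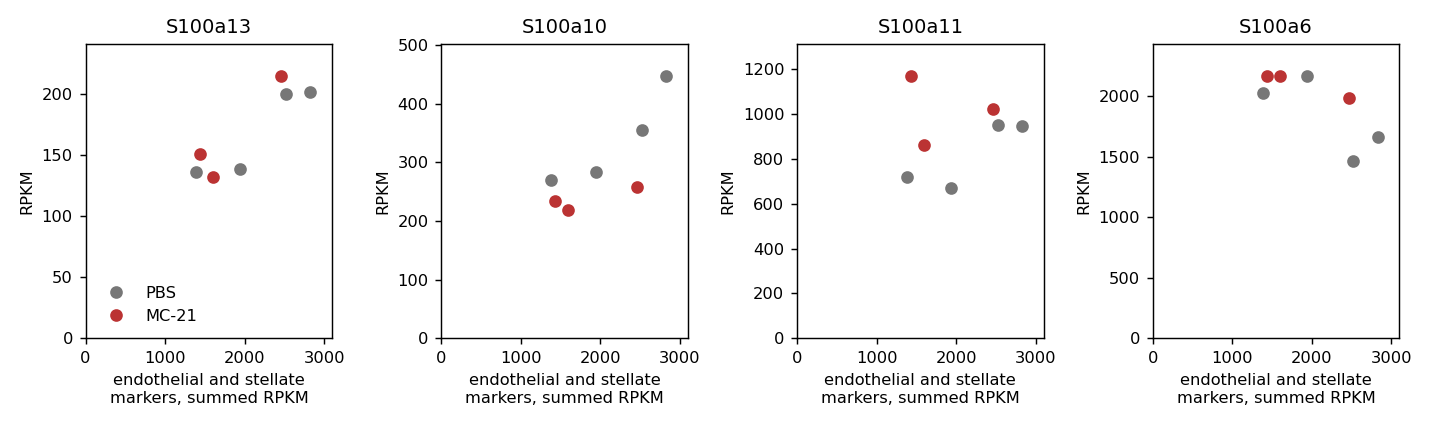
RPKM of S100a13, S100a10, S100a11 and S100a6 (vertical axes) against the summed RPKM of endothelial and stellate cell markers (horizontal axes) in 4 PBS and 3 MC-21 libraries. The 3 libraries with the highest sums, from 2461 to 2826 RPKM, hold the highest S100a13 and the lowest S100a6 values.

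In the genome the S100 genes of the mouse sit largely in 1 cluster on chromosome 3. In mm9, the build to which the authors mapped, the 10 S100 genes of the cluster with a row in the table span chr3:90314956-90499643 (184688 bp), and S100a11 and S100a10 lie outside it, at chr3:93324410-93330209 and chr3:93359002-93368565. S100a1 (chr3:90314956-90318314, reverse strand) and S100a13 (chr3:90318357-90328503, forward strand) start back to back. S100a4 (chr3:90407692-90409967), S100a6 (chr3:90416816-90418336) and S100a8 (chr3:90472993-90473956) are read forward and S100a9 (chr3:90496554-90499643) in reverse. S100a4 thus fell between genes of the cluster that did not pass the threshold.

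The same held for the genes around the cluster. Of 20 other genes within 500 kb of it 16 were tested, and 0 passed limma's adjusted threshold or an unadjusted p under 0.05. The nearest on either side were Snapin, 20001 bp before it, at 13.9 ± 1.90 and 13.7 ± 4.23 RPKM (n = 4 and 3), and Pglyrp4, 31185 bp after it, at 1.11 ± 0.467 and 1.07 ± 0.307 RPKM. Their log2 differences, −0.05 and −0.01, turned to 0.11 and 0.16 with median centring.

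Other S100 family genes were sparse. S100a16 was the only one above 10 RPKM, at 162 ± 39.4 RPKM in PBS and 167 ± 18.5 RPKM in MC-21 neutrophils (log2 difference 0.06, adjusted p = 0.902 by limma). S100g passed the filter at up to 3.50 RPKM, with a log2 difference of 0.05 (adjusted p = 0.971 by limma) that became −0.53 with a pseudocount of 0.1. S100a14, S100a3, S100b, S100a2 and S100a7a had means under 1 RPKM and were not tested. S100a2 was listed at 0 in the 3 MC-21 libraries and in PBS replicate 7, and S100a7a was above 0 in MC-21 replicate 2 only (0.756 RPKM).

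Extracellular S100A8/A9 acts through receptors at the cell surface. Of 6 genes for them 5 were tested, and 0 passed limma's adjusted threshold. At an unadjusted p under 0.05, 2 of the 5, Cd14 and Cd36, were higher in MC-21 neutrophils and 0 lower. Of all genes 3.59% were higher and 11.2% lower at that limit. Cd14, the co-receptor of TLR4, was at 391, 671, 800 and 581 RPKM in PBS and at 1345, 1071 and 1430 RPKM in MC-21 neutrophils. These groups did not overlap, and the log2 difference was 1.11 (SE 0.23, adjusted p = 0.0739 by limma). Median centring brought it past the threshold (adjusted p = 0.0465 by limma), and over all alternatives its adjusted p was 0.0465 to 0.395.

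Of the receptors proper, Tlr4 and Ager were low and Bsg stood higher. Tlr4 was at 3.40 and 3.87 RPKM (adjusted p = 0.751 by limma), and Ager, which encodes RAGE, at 6.02 and 8.51 RPKM (log2 difference 0.49, or 0.24 without PBS replicate 6, adjusted p = 0.447). Bsg, the S100A9 receptor basigin, was at 62.9 and 57.6 RPKM, with a log2 difference of −0.11 that was 0.05 with median centring. Ly96, the MD-2 subunit of the TLR4 complex, was under the filter, with a PBS mean of 0.229 RPKM and 0 in the 3 MC-21 libraries. Cd36, a scavenger receptor that takes up S100A8/A9 with fatty acids, was at 10.1, 21.9, 10.5 and 9.38 RPKM in PBS and at 21.7, 19.4 and 17.3 RPKM in MC-21 neutrophils (adjusted p = 0.333 by limma), with PBS replicate 6 above the MC-21 libraries.

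Of 29 intracellular partners of S100 proteins 27 were tested, and 0 passed limma's adjusted threshold. At an unadjusted p under 0.05, 7 of the 27 were lower in MC-21 neutrophils and 0 higher, where 11.2% of all genes were lower and 3.59% were higher. The list's median log2 difference was −0.18, beside −0.15 for all genes tested. Cybb, the catalytic subunit of the phagocyte NADPH oxidase to which S100A8/A9 delivers arachidonic acid, was at 11.6 to 19.5 RPKM in PBS and at 6.06 to 9.13 RPKM in MC-21 neutrophils. The groups did not overlap, with a log2 difference of −1.01 and an adjusted p of 0.0791 by limma.

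Among the annexins, Anxa2, the partner of S100A10, was at 682 ± 106 and 575 ± 92.6 RPKM (log2 difference −0.25, adjusted p = 0.511 by limma). Anxa1, the partner of S100A11, was at 193 and 221 RPKM (0.22, adjusted p = 0.682), and Anxa5 at 177 and 134 RPKM without overlap (−0.41, adjusted p = 0.302). Anxa6 and Anxa11 differed by 0.11 and 0.16 (adjusted p = 0.855 and 0.780). Ahnak, a giant scaffold that the S100A10 and annexin A2 complex binds, was at 2.37 and 1.10 RPKM without overlap (−0.64, adjusted p = 0.304). Myh9, the non-muscle myosin heavy chain that S100A4 binds, was at 61.0 and 52.2 RPKM, also without overlap (−0.22, adjusted p = 0.500). Leaving out single libraries moved Anxa1 to 0.06 (without PBS replicate 8), Anxa2 to −0.15 (without PBS replicate 7), Anxa5 to −0.25 (without MC-21 replicate 4) and Anxa11 to 0.02 (without PBS replicate 6). No difference of these annexin and myosin genes was near the size of that of S100a4.

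Calcium-binding EF-hand proteins outside the family were compared to see whether the S100 pattern was shared. Of 42 genes 39 were tested, 0 passed limma's adjusted threshold, and 4 were lower and 2 higher at an unadjusted p under 0.05. These 6 of 39 are close to the 14.7% of all genes at that limit. Their median log2 difference was −0.13. The calmodulin gene Calm3 had a log2 difference of −0.12, which became 0.05 with median centring. Calm2, another calmodulin gene, was at 265 to 388 RPKM in 6 libraries and at 33.1 RPKM in MC-21 replicate 4, so that its difference of −1.04 (adjusted p = 0.517 by limma) became 0.05 without that library. Of 10 genes tested for the secretion and release of S100 proteins, such as those of the inflammasome and gasdermin D, 0 passed either threshold, and their median log2 difference was 0.10. The lists of receptors, partners, EF-hand and release genes had 0 calls with an unequal-variance test on log2 values and with the equal-variance test on RPKM. Those tests called 2 and 5 of the 9594 genes, so 0 calls in lists this short say little.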

How the data were processed

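RNA-seq libraries (3′) were made from sorted neutrophils of single livers. Alignment by the authors was to mm9 (HISAT 0.1.5, SAMtools), and they deposited RPKM values from Partek Genomics Suite 6.6. Annotation, multiply mapping reads, molecular barcodes and any filter on low values are not given in the sources used here. RPKM is not a count, so no count test was run. Every column was assigned to 1 mouse by its title, and 0 columns belonged to other samples.

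Differences are MC-21 minus PBS on log2(RPKM + 1), for the 9594 genes averaging 1 RPKM or more. They were tested in R 4.3.3 with limma 3.58.1 (lmFit, eBayes with trend), and p-values were adjusted over these genes by Benjamini-Hochberg. Fold changes on this scale understate the change of low genes. The rule of the study, an unpaired test on RPKM with an unadjusted p and a 2-fold limit, was run over the same genes as an alternative added after the data were seen. Between 12376 and 13864 genes were above 0.

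The members and the 14 gene lists were chosen with earlier results of these data known. Named are all S100 genes, called list genes, fixed partners, the 3 highest of each marker list, the nearest tested neighbours and the 3 genes most alike to S100a4, S100a8 and S100a9. Other genes named were chosen after their values were seen. Some genes of the lists are not reported here by name, whatever their values, but were kept in the fits and counts. Gene positions and transcript lengths are those of the mm9 annotation GENCODE M1, and promoters are from RefSeq, GRCm38.p6, where 7 of 8 members had an entry. Tables and plots used Python 3.11.15, numpy 2.4.6, pandas 2.3.3, scipy 1.17.1 and matplotlib 3.10.9. Alternatives were another pseudocount, other filters, scalings and tests, and leaving out each library.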

Additional observations from a re-analysis of the deposited data

Results flagged for a closer look

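In the PBS group, where 4 libraries allow the test, 5 of the 65 genes checked had 1 library far from the other 3 by Dixon's ratio at its 95% limit. Chance flags about 5% of groups. No S100 gene was among them. Cd36 was at 21.9 RPKM in PBS replicate 6, close to its level in MC-21 libraries, and Cd79b (21.5 RPKM) and Ahsg (123 RPKM) were highest in the same library. Marco was highest in PBS replicate 8 (41.1 RPKM), and Ccr3 was above 0 among the PBS libraries in that one only (0.308 RPKM).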

How the results depend on the processing

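S100a4 was 1 called member under each alternative but the equal-variance test on RPKM with adjusted p-values, which called 0. Receptors had 1 call (Cd14) with median centring. Over all genes, 60 calls became 4 without a filter, 2 with an unequal-variance test on log2 values, 5 with the equal-variance test on RPKM and 259 at an unadjusted p with a 2-fold limit. The equal-variance test on RPKM with an unadjusted p and a 2-fold limit, added after the data were seen, gave 277, with S100a4 as the 1 member. Leaving out single libraries gave 9 to 102 calls: 102 without PBS replicate 6, 14 and 9 without PBS replicates 7 and 8, and 19, 35 and 18 without MC-21 replicates 2, 3 and 4. The cause was not tested. On RPKM times transcript length, 2 members changed places in PBS neutrophils. The ratio of S100a8 to S100a9 stayed higher in MC-21 neutrophils by 0.0401 to 0.0898 when single libraries were left out. Small differences turned sign. With median centring these were S100a13 (0.13), Bsg (0.053), Calm3 (0.048), Snapin (0.11), Pglyrp4 (0.16) and Trf (0.15). With quantile normalization they were Snapin (0.10), Pglyrp4 (0.19) and Trf (0.049). With a pseudocount of 0.1 they were S100g (−0.53) and Pglyrp4 (0.029), and on RPKM Ahsg (−0.035). Without single libraries the differences ranged from −5.8e-04 to 0.39 for S100a1, −0.24 to 0.12 for S100a13, −0.026 to 0.22 for S100a16, −0.47 to 0.61 for S100g, −0.032 to 0.34 for Anxa6, −1.59 to 0.052 for Calm2, −0.26 to 0.15 for Snapin, −0.18 to 0.087 for Pglyrp4, −0.78 to 0.28 for Nkg7, −0.40 to 0.076 for Apoa1, −0.16 to 0.12 for Trf, −0.054 to 0.41 for Ahsg, −0.58 to 0.12 for Clec4g and −0.037 to 0.69 for Mcpt8. Without a filter, the calls of Ccr2, Ms4a6c, F13a1, Fcgr1, Trem2, Axl, Cd74 and H2-Eb1 were lost, and both other tests lost those of all 10 marker genes. No paired analysis was possible because the groups share no replicate numbers. Depth limits genes near 1 RPKM, which rest on few reads.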

Other observations

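Cacybp, which encodes the calcyclin-binding protein that S100A6 binds, lay at very different levels in libraries of 1 group. It was at 3.25, 19.2, 15.3 and 8.35 RPKM in PBS replicates 5 to 8 and at 20.0, 2.97 and 3.74 RPKM in MC-21 replicates 2 to 4. The spread within each group was larger than the log2 difference between them, −0.54, with an adjusted p of 0.736 by limma. Without MC-21 replicate 2 that difference was −1.30, and without MC-21 replicate 3 it was −0.10. The low libraries were PBS replicate 5 and MC-21 replicates 3 and 4, which also held the 3 highest S100a9 values, while S100a6 itself was among the more even members, with an SD within groups of 0.20 on the log2 scale.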
